A study of Mus musculus with 11 samples.

Results

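The 10 genes of the core circadian clock loop were followed in RNA sequencing libraries from mouse hypothalamus: Arntl, Clock, Npas2, Per1, Per2, Per3, Cry1, Cry2, Nr1d1 and Nr1d2. They were taken by gene name, and all 10 were found among the 14864 genes of the deposited table. All 10 had a mean of at least 1 CPM, the count scaled to the size of the library, over the libraries and so were among the 13184 genes tested. The 11 libraries came from mice aged 60 to 70 days, and the series calls them biological replicates. Of these, 2 females and 3 males were wild type (WT). The other 3 females and 3 males were labelled Het, for heterozygous, in a study of the loss of MYT1L, a neuronal transcription factor. The sources used here do not give the allele, how the mutation was made, the light cycle or the time of day at which tissue was taken. The question was whether the level of the clock genes differed between the genotypes and how they moved together from library to library.

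The clock is a loop of transcription and feedback. BMAL1, the product of Arntl, pairs with CLOCK or with its relative NPAS2, binds E-box sequences and switches on the Per and Cry genes and Nr1d1 and Nr1d2. PER and CRY proteins then return to the nucleus and block that pair, while NR1D1 and NR1D2 (REV-ERB alpha and beta) repress Arntl through ROR elements. The hypothalamus holds the suprachiasmatic nucleus, the pacemaker that light resets each day, and most other brain cells run the same loop. In tissues with a running clock Arntl transcripts peak roughly when those of Nr1d1 and the Per genes are low, so samples spread over the day show them moving in opposite directions.

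After a correction made by the authors, the tables stand for 22921048 to 24941704 corrected counts per library, and 1 corrected count equalled 0.0417 to 0.0423 CPM. The raw depth is unknown. Myt1l itself had 76.3 ± 15.9 CPM (SD, n = 5) in WT and 76.3 ± 26.9 CPM (SD, n = 6) in Het. Its lowest value lay in the library labelled WT replicate 11 (51.1 CPM) and its highest in the library labelled Het replicate 9 (130.0 CPM), against the direction of the labels. WT and Het therefore mean the groups as labelled, and values without these 2 libraries are given beside several results. The mean of 14 striatal markers was 4.51 to 5.00 in WT and 4.96 to 5.68 in Het on the log2(CPM + 0.5) scale. By the limma test 7 of these 14 markers were higher in Het and none lower, where 3.44% of all genes passed in either direction. Of 14 hypothalamic markers, 5 were lower and none higher. The summed haemoglobin genes, which mark blood, ran from 306 to 2048 CPM without separating the genotypes. In bulk tissue, fewer cells of a type and less RNA per cell cannot be told apart.

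The loop was expressed throughout, and its members stood far apart in level. Per kilobase of annotated exon, Nr1d1 was highest at 25.8 ± 1.54 CPM per kb (SD over 11 libraries). Cry2 at 7.25 ± 1.14 and Nr1d2 at 5.96 ± 0.65 CPM per kb came next, and their ranges of mean ± 1 SD overlapped. Cry1 (2.11 ± 0.41), Arntl (1.95 ± 0.31), Per1 (1.47 ± 0.31), Per3 (1.44 ± 0.25), Clock (1.15 ± 0.25), Npas2 (0.756 ± 0.214) and Per2 (0.660 ± 0.226 CPM per kb) followed, and the range of mean ± 1 SD of each overlapped that of its neighbour. Nr1d1 thus stood clear of every other member, and so did Cry2 and Nr1d2 of those after them. The order from Cry1 to Per3 depends on the length used: per kilobase of the longest transcript Arntl stood at 3.67, Cry1 at 2.33, Per3 at 2.31 and Per1 at 1.77 CPM per kb.

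The members also differed in how steady they were between libraries. The highest library exceeded the lowest by 2.82 times for Per2, 2.79 for Npas2, 2.17 for Clock, 2.10 for Per1 and 2.03 for Per3, and by 1.79 for Cry1, 1.64 for Arntl, 1.60 for Cry2, 1.39 for Nr1d2 and 1.20 for Nr1d1. Low genes vary more for counting reasons, so each residual SD, taken on the log2 scale around genotype and sex, was set beside those of genes with a like mean. Clock (SD 0.33) exceeded 94.2% of 2288 such genes and Cry2 (SD 0.24) exceeded 93.5% of 1920. Nr1d1 (SD 0.094) exceeded 29.4% of 1390, and Npas2 (SD 0.29) 36.4% of 1662. Between these lay Per2 (79.8%), Arntl (79.5%), Per1 (74.9%), Nr1d2 (70.5%), Per3 (58.1%) and Cry1 (46.0%). Clock and Cry2 thus exceeded the largest share of genes of their level, and Nr1d1 and Npas2 the smallest. For Clock, WT replicates 4 and 11 lay far under all other libraries, with 8.97 and 9.87 CPM.

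**Figure D1:**
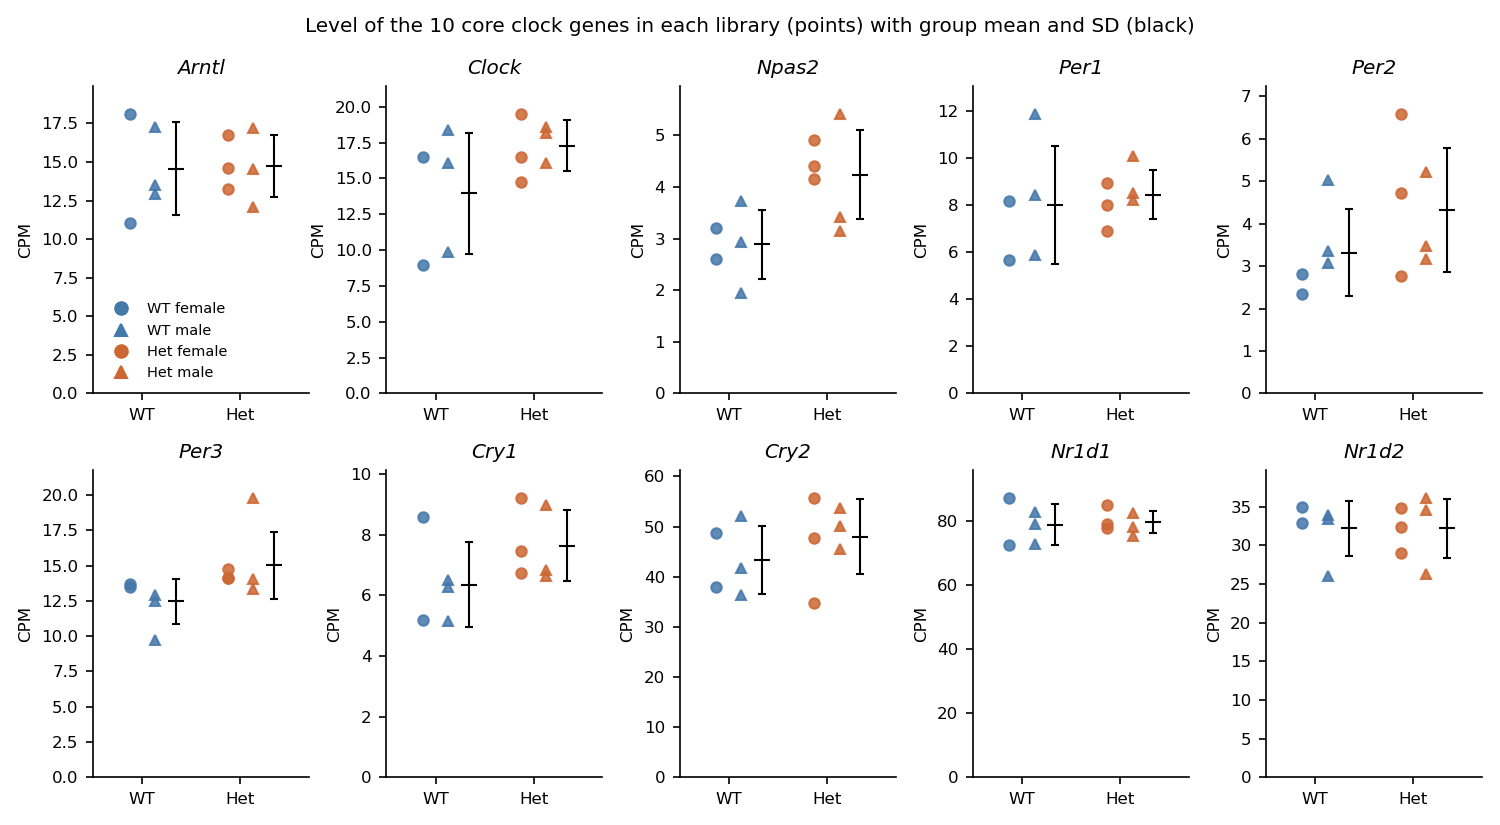
Level of each core clock gene in CPM (y axis, starting at 0) for every library of the WT and Het groups; circles are females, triangles males, and the black bar is the group mean with its SD. All 10 genes overlap between the groups, and Clock in WT splits into 2 libraries near 9 to 10 CPM and 3 at 16.1 to 18.4 CPM.

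None of the 10 genes passed the test for Het against WT. The groups overlapped for each of the 10, but the share of all genes with such overlap was not computed. The overlap is therefore not read as a trait of the members. With limma, genotype and sex as terms and Benjamini-Hochberg adjustment over the 13184 genes, 0 of 10 had an adjusted p under 0.05, where 3.44% of all genes tested did. At an unadjusted p under 0.05 the count was 2 of 10, Npas2 and Clock, where 22.3% of all genes reached it, so the share among members was near the background. The difference was positive for 9 of 10 members, with a median of 0.20 on the log2 scale, beside 47.0% positive and a median of -0.016 over all genes tested. All members were measured in the same libraries, and some pairs of them had a high r, so the 9 cannot be counted as separate observations. The sum of the 10 genes was 203 to 234 CPM in WT and 220 to 243 CPM in Het, and these ranges overlap.

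Arntl, whose product BMAL1 is the partner that both positive complexes share, lies on chromosome 7 from 113207465 to 113314126 on the plus strand (ENSMUSG00000055116; all gene coordinates are mm10). It had 18.1, 11.0, 13.5, 12.9 and 17.3 CPM in WT replicates 4, 6, 3, 7 and 11. In Het the lowest was 12.1, the median 14.6 and the highest 17.2 CPM. All 6 Het values fell inside the WT range. The difference was 0.03 on the log2(CPM + 0.5) scale (SE 0.14, 95% confidence interval -0.26 to 0.32, limma adjusted p = 0.923). The interval leaves room for a change of up to 1.25-fold. A ROR element core, the letters by which ROR factors and NR1D1 reach this gene, was searched as TAGGTCA on both strands of RefSeq promoter windows (GRCm38.p6, 250 bases before to 50 after each start). It is shown because it ties the arms of the loop together, with the core in capitals, at chr7:113207530-113207559 on the plus strand, starting at base 31 of the transcript.

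Arntl: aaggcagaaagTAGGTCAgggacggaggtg

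Of 32851 windows, 2.61% hold that core, and Arntl was the only member of the 9 with a window to hold it. A match is a description of letters, not of binding. Per2 had no entry.

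Clock, a histone acetyltransferase as well as the DNA-binding partner of BMAL1, lies on chromosome 5 from 76209868 to 76304792 on the minus strand (ENSMUSG00000029238). It had 8.97, 16.5, 18.4, 16.1 and 9.87 CPM in WT replicates 4, 6, 3, 7 and 11, and a lowest of 14.7, a median of 17.3 and a highest of 19.5 CPM in Het. WT replicates 4 and 11 lay far under all other libraries, and the other 3 WT libraries lay among the Het ones. Het exceeded WT by 0.36 (SE 0.16, 95% confidence interval 0.01 to 0.71, unadjusted p = 0.0439, limma adjusted p = 0.209). Leaving out WT replicate 4 gave 0.20, and leaving out WT replicate 11 gave 0.24. The value was -0.01 among the 4 libraries of identifier prefix 14308 and 0.37 among the 6 of prefix 14309.

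The 2 libraries with low Clock were also the 2 whose genes leaned most towards high GC content. Over all genes, the level rose by 0.140 log2 units per 10 percentage points of GC in WT replicate 4 and by 0.118 in WT replicate 11, while the other libraries ran from -0.180 to 0.092. The 0.092 was that of Het replicate 4, which had 16.5 CPM of Clock. The longest Clock transcript has 9744 bases at 40.9% GC, where the genes of the table had medians of 3385 bases and 49.85%. Nr1d2, with a similar 41.8% GC but 4663 bases, had 32.9 and 33.9 CPM in WT replicates 4 and 11. As a single gene it does not test the trend. After removal of each library's trend on length and GC of the transcripts, an alternative chosen after seeing the data, the Clock difference was 0.18 (SE 0.14, limma adjusted p = 0.562). The part of that trend in the Clock values was not otherwise tested.

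Npas2, the relative of CLOCK that is abundant in forebrain and striatum, lies on chromosome 1 from 39193731 to 39363236 on the plus strand (ENSMUSG00000026077). WT replicates 4, 6, 3, 7 and 11 had 3.21, 2.60, 1.94, 3.73 and 2.94 CPM, and Het had a lowest of 3.14, a median of 4.28 and a highest of 5.42 CPM. The means were 2.89 ± 0.67 CPM (SD, n = 5) and 4.24 ± 0.87 CPM (SD, n = 6), and 4 of the 6 Het libraries lay above all WT libraries. The difference was 0.48 (SE 0.19, 95% confidence interval 0.08 to 0.87, a ratio of 1.39), with an unadjusted p of 0.0204 and a limma adjusted p of 0.144. It was the largest difference in the loop and did not pass the adjusted threshold.

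Striatal markers moved with it. Het replicate 9 had the highest Npas2 and the highest striatal mean (5.68), and WT replicates 3 and 6 had the lowest Npas2 and the lowest striatal means (4.61 and 4.51). When the striatal mean was added to the fit, the Npas2 difference was 0.02 (SE 0.29, limma adjusted p = 0.979). Since the striatal mean itself differs between the genotypes, the genotype and the amount of striatal signal cannot be told apart in that fit. Within prefix 14308 the Npas2 difference was 0.23, and within prefix 14309 it was 0.72.

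**Figure D2:**
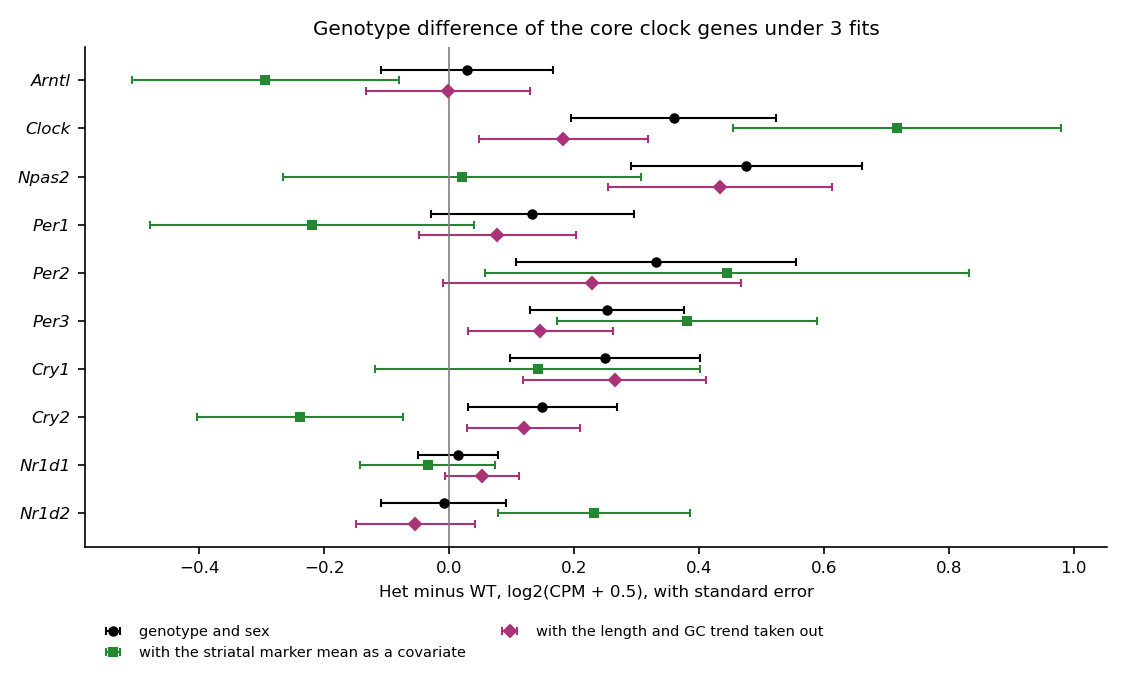
Het minus WT difference of each member on the log2(CPM + 0.5) scale (x axis) with its standard error, from the fit with genotype and sex (black), with the striatal marker mean added (green) and after removal of each library's length and GC trend (magenta). Npas2 goes from 0.48 to 0.02 with the striatal mean, Clock goes to 0.72 with it and to 0.18 without the length and GC trend, and Nr1d1 stays near 0 in all 3.

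The Per genes encode the repressors whose build-up times the loop, and Per1 and Per2 also respond to light and neuronal activity within a cycle. Per1 (chromosome 11 from 69095217 to 69109960, plus strand, ENSMUSG00000020893) had 8.18, 5.67, 5.90, 8.43 and 11.9 CPM in WT replicates 4, 6, 3, 7 and 11. In Het the lowest was 6.92, the median 8.37 and the highest 10.1 CPM, inside the WT range. The difference was 0.13 (SE 0.16, limma adjusted p = 0.670). Single WT libraries moved it, to 0.02 without replicate 3, 0.04 without replicate 6, 0.20 without replicate 4 and 0.26 without replicate 11, and it was 0.28 without the 2 libraries whose Myt1l went against their labels. With the striatal mean in the fit it was -0.22 (SE 0.26). The SD was 2.51 CPM in WT and 1.05 CPM in Het, but that of WT was 1.46 CPM without replicate 11.

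Per2 (chromosome 1 from 91415982 to 91459324, minus strand, ENSMUSG00000055866) had 2.34, 2.81, 5.02, 3.06 and 3.36 CPM in the same WT order, and a lowest of 2.77, a median of 4.11 and a highest of 6.58 CPM in Het. Only Het replicates 7 and 9 exceeded the highest WT library. The difference was 0.33 (SE 0.22, limma adjusted p = 0.400), and 0.20 without Het replicate 7. Over all libraries it was 0.69 in females and 0.04 in males, a contrast that the interaction test did not separate (difference of -0.65, SE 0.43, unadjusted p = 0.157). Within prefix 14308, all male, it was -0.22.

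Per3 (chromosome 4 from 151003652 to 151044665, minus strand, ENSMUSG00000028957), which is not needed for rhythm itself but adjusts its period and phase, had 13.7, 13.5, 9.74, 12.5 and 12.9 CPM in WT and a lowest of 13.3, a median of 14.1 and a highest of 19.8 CPM in Het. Het replicate 5 at 19.8 CPM stood apart from the other Het libraries, whose highest was 14.7 CPM. The difference was 0.25 (SE 0.12, 95% confidence interval -0.01 to 0.51, unadjusted p = 0.0566, limma adjusted p = 0.238), and 0.15 without Het replicate 5. The Per3 promoter is shown because it was the only member window with the D-box letters TTATGTAA, which the output factors DBP, TEF and HLF bind, and it holds them 2 times, at positions -205 and -158 counted from the start (chr4:151044796-151044890, minus strand, D-boxes in capitals).

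Per3: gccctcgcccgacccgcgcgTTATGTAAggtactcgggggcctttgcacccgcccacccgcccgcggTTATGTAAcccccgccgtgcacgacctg

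Of all windows, 0.938% hold that D-box on either strand.

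The Cry genes encode the flavoprotein repressors that act with PER. Cry1 (chromosome 10 from 85131700 to 85185064, minus strand, ENSMUSG00000020038) had 8.60, 5.20, 6.28, 5.16 and 6.51 CPM in WT replicates 4, 6, 3, 7 and 11 and a lowest of 6.63, a median of 7.15 and a highest of 9.21 CPM in Het. WT replicate 4 lay among the highest Het libraries, while the other 4 WT libraries lay below all 6 Het libraries. The difference was 0.25 (SE 0.15, limma adjusted p = 0.345), and 0.15 without WT replicate 6. Cry2 (chromosome 2 from 92403646 to 92434043, minus strand, ENSMUSG00000068742) had 48.7, 37.9, 36.4, 41.7 and 52.0 CPM in WT and a lowest of 34.8, a median of 49.0 and a highest of 55.7 CPM in Het. The lowest Cry2 library of all was a Het one, replicate 7, and the difference was 0.15 (SE 0.12, limma adjusted p = 0.482). Leaving that library out gave 0.23, leaving out Het replicate 4 gave 0.10 and leaving out WT replicate 3 gave 0.08, and with the striatal mean in the fit it was -0.24 (SE 0.17).

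The Cry1 promoter is shown because it holds both forms of the E-box searched, CACGTG and, with 1 base changed, CACGTT, whose reverse complement is AACGTG. From position -100 to position -36 (chr10:85185090-85185154, minus strand), with both in capitals, it reads as follows.

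Cry1: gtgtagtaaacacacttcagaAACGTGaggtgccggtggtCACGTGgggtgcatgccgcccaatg

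Per1 was the other member with CACGTG, at position -166 from a RefSeq start that lies inside the annotated gene. That match falls within chr11:69098753-69098818 on the plus strand. Cry2 and Nr1d1 were the other 2 with CACGTT, at positions -166 and -28. Of all 32851 windows, 7.15% hold CACGTG and 4.68% hold CACGTT on either strand. No member window held the cAMP response element TGACGTCA, which 1.79% of windows hold, and nothing follows from that for sites outside these 300 bases.

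Nr1d1 and Nr1d2 encode the haem-sensing nuclear receptors that repress Arntl. Nr1d1 (chromosome 11 from 98767932 to 98775333, minus strand, ENSMUSG00000020889) had 87.3, 72.5, 72.9, 79.1 and 82.8 CPM in WT and a lowest of 75.6, a median of 78.6 and a highest of 85.1 CPM in Het, all inside the WT range. The difference was 0.01 (SE 0.065, 95% confidence interval -0.12 to 0.15), so changes beyond 1.11-fold in either direction lay outside the interval. Its exons share 263 bases, 8.55% of their length, with Thra on the opposite strand, which had 57.0 to 109 CPM. The sources used here do not say whether counting used strand, and an uncertain share of Nr1d1 reads may come from Thra. Over the 11 libraries Nr1d1 had r = 0.62 and rho = 0.54 with Thra. Per1 (r = 0.61), Cry2 (0.55) and Arntl (0.54), whose exons do not overlap Thra, had a similar r, and Clock had -0.87. The share of reads was not tested.

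Nr1d2 (chromosome 14 from 18204054 to 18239127, minus strand, ENSMUSG00000021775) had 32.9, 35.0, 33.4, 26.0 and 33.9 CPM in WT and a lowest of 26.3, a median of 33.5 and a highest of 36.1 CPM in Het. WT replicate 7 was low alone in its group, while in Het replicates 9 and 2 (26.3 and 29.0 CPM) were the lowest, and the other 4 had 32.4 CPM or more. The difference was -0.01 (SE 0.10, 95% confidence interval -0.22 to 0.20, limma adjusted p = 0.969).

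Sex did not separate the members either. For male against female, 0 of 10 passed the limma test after adjustment, where 0.197% of all genes did, and 0 of 10 had an unadjusted p under 0.05, where 12.2% of all genes did. Per1 had the lowest unadjusted p, 0.204, with 7.55 ± 1.27 CPM (SD, n = 5) in females and 8.84 ± 2.01 CPM (SD, n = 6) in males. For the genotype by sex interaction the counts were again 0 of 10 adjusted, beside 0% of all genes, and 0 of 10 unadjusted, beside 4.65%.

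Between libraries, Arntl and Nr1d1 tended to be high in the same libraries and Clock low in them, but no relation among members passed adjustment. Arntl was used as a continuous term beside genotype and sex, and all other 13183 genes were fitted against it. After adjustment by limma 0 of 9 members passed, where 0% of all genes did, and the lowest adjusted p was 0.383. At an unadjusted p under 0.05 there were 5 of 9 members, where 11% of all genes reached it. The slope of Clock was -1.12 log2 units per log2 unit of Arntl (SE 0.26, unadjusted p = 0.000553, limma adjusted p = 0.383), and it ranked 19 of 13183 genes by p. Cry1 went the other way with a slope of 0.86 (SE 0.28), Cry2 with 0.66 (SE 0.22), Per1 with 0.83 (SE 0.32) and Nr1d1 with 0.31 (SE 0.13). Without the 2 libraries whose Myt1l went against their labels, Per1 was not under 0.05 (limma unadjusted p = 0.0997). After removal of the length and GC trend, 3 of 9 members (Clock, Cry1 and Cry2) had an unadjusted p under 0.05, beside 8.02% of all genes.

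Against Nr1d1, 0 of 9 members passed after adjustment, where 6 genes or 0.0455% did, and Clock was closest with a slope of -3.11 (SE 0.67, limma adjusted p = 0.0931). Unadjusted, 5 of 9 members (Clock, Arntl, Per1, Cry1 and Cry2) were under 0.05, beside 13.9% of all genes. Cry2 was not under 0.05 without the 2 libraries whose Myt1l went against their labels (limma unadjusted p = 0.0789). After removal of the length and GC trend, that count was 0 of 9, beside 7.69%, and the Clock slope was -0.57 (unadjusted p = 0.592). Against Per2, 0 of 9 members passed after adjustment, where 0% of all genes did. Cry2 alone was under 0.05 unadjusted, with a slope of -0.42 (SE 0.13, limma adjusted p = 0.254), so 1 of 9 stands beside 12.6%. After removal of the trend it was again 1 of 9, Cry2, beside 13.6%.

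The genes most like each of these 3 lay outside the loop. By the limma statistic over 11 libraries, Srebf1, Apeh, Eva1c and Pnmal2 were among the genes with the most positive relation to Arntl and Sgk1, mt-Co3, Hba-a1, Tmem167 and mt-Atp6 had the most negative, all with adjusted p of 0.0649 or more. With Per2 the highest were Fgf7, Cript, Ndufaf4, Mkx and Dhx15 and the lowest Rbm38, Tap1, Selplg, Inpp5j and Safb2, with adjusted p of 0.121 or more. With Nr1d1 the highest were Taf6l, Wdr6, Pnmal2, Trp53i11 and Vps18. The lowest, Hba-a1, Hbb-bt, Hba-a2, Hbb-bs and mt-Atp6, are the haemoglobin chains and a mitochondrial ATP synthase subunit, and all 5 passed with adjusted p of 0.00947 to 0.0210. WT replicates 6 and 3, the lowest for Nr1d1 with 72.5 and 72.9 CPM, had the highest summed haemoglobin, 2048 and 1708 CPM. In the other 9 libraries haemoglobin was at most 932 CPM, and the 6 genes that passed became 0 without WT replicate 4 or WT replicate 11 and 91 without Het replicate 4.

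Haemoglobin also ran against Per1, Arntl and Cry1, whose r with Nr1d1 was positive. Npas2 (r = -0.56), Cry2 (-0.55) and Per3 (-0.41), also positive with Nr1d1, had a weaker negative r with haemoglobin. Per2 had -0.05, Nr1d2 0.06 and Clock 0.32. This comparison was added after seeing the data, in which haemoglobin genes were already those most negative to Nr1d1. Its p-values come from the same libraries and give no separate support, least of all for Nr1d1. Over 11 libraries and 10 members, with adjustment over the 10, the r with summed haemoglobin was -0.79 for Nr1d1 (permutation p = 0.00211, adjusted p = 0.0211; rho -0.66, permutation p = 0.0298, adjusted p = 0.274). It was -0.77 for Per1 (permutation p = 0.00591, adjusted p = 0.0296), with rho = -0.50 (permutation p = 0.122, adjusted p = 0.306). Arntl had r = -0.67 (permutation p = 0.0188, adjusted p = 0.0625) and rho = -0.55 (permutation p = 0.0821), and Cry1 had r = -0.63 (permutation p = 0.0368, adjusted p = 0.0919) and rho = -0.59 (permutation p = 0.0593). Without WT replicates 3 and 6, farthest from the median of haemoglobin, r was -0.52 for Nr1d1, -0.26 for Per1, -0.53 for Arntl and -0.51 for Cry1. The relation of Per1 to haemoglobin thus rests on those 2 libraries, and those of Nr1d1, Arntl and Cry1 were smaller without them. Haemoglobin was not the only such library property. The share of counts from mitochondrial coding genes had r = -0.78 and rho = -0.83 with Nr1d1. Its r was -0.65 with Arntl, -0.51 with Cry1 and -0.51 with Per1, while Clock, Nr1d2 and Per3 had a positive r. The cause of these relations was not tested.

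**Figure D3:**
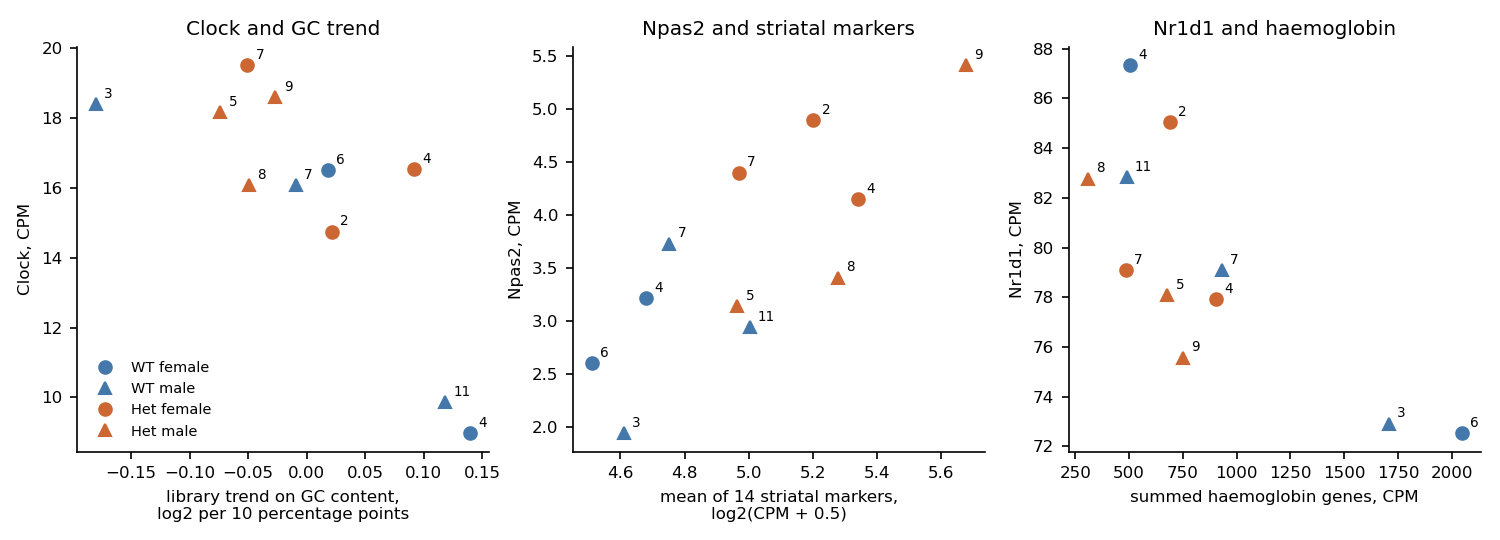
Clock, Npas2 and Nr1d1 against a property of the library, 1 point per library with its replicate number: Clock in CPM against the GC trend (left), Npas2 in CPM against the mean of striatal markers (centre) and Nr1d1 in CPM against summed haemoglobin genes in CPM (right); axes do not start at 0. WT replicates 4 and 11 combine low Clock with the highest GC trends, and Het replicate 4, next in GC trend, has 16.5 CPM of Clock. WT replicates 3 and 6 sit alone at low Nr1d1 and high haemoglobin.

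The 45 pairs of members were also compared directly over the 11 libraries, with a permutation test of 100000 resamples and adjustment over the 45 pairs. None passed, the lowest adjusted p was 0.0522, and 9 of 45 had an unadjusted p under 0.05. These were the 9 pairs (20%) with an r of 0.6 or beyond in either direction, where 10.3% of all gene pairs had one. The highest r was that of Arntl and Nr1d1, with r = 0.82 (permutation p = 0.00232, adjusted p = 0.0522) and rho = 0.72 (permutation p = 0.0163, adjusted p = 0.244). It was 0.67 without WT replicates 4 and 6, which were farthest from the median of Arntl, 0.83 with the mean of each genotype and sex group taken off and 0.88 in the 6 libraries of prefix 14309. Prefix 14308, with 4 libraries, holds too few for a value. After removal of the length and GC trend it was 0.26, and without WT replicates 3 and 6, the libraries with the most haemoglobin, it was 0.79. The relation of Nr1d1 to Arntl was thus of similar size within groups, and much smaller once that trend was removed.

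Per1 and Cry2, both repressors, formed the next pair with r = 0.81 (permutation p = 0.00189, adjusted p = 0.0522) and rho = 0.79 (permutation p = 0.00528, adjusted p = 0.238). It was 0.84 without WT replicates 11 and 6, 0.85 within groups, 0.77 within prefix 14309, 0.69 without WT replicates 3 and 6 and 0.62 after removal of the trend. Cry1 and Arntl had r = 0.77 (permutation p = 0.00556, adjusted p = 0.0834) and rho = 0.59 (permutation p = 0.0595), 0.70 without Het replicates 2 and 8, 0.90 within groups, 0.72 within prefix 14309, 0.68 without WT replicates 3 and 6 and 0.69 after removal of the trend. Cry1 and Nr1d1 had r = 0.72 (permutation p = 0.0127, adjusted p = 0.108) and rho = 0.56 (permutation p = 0.0760), with 0.62 without the same 2 libraries, 0.78 within groups, 0.79 within prefix 14309, 0.63 without WT replicates 3 and 6 and 0.57 after removal of the trend. These 3 pairs lost less with the trend than that of Arntl and Nr1d1 did. The same does not hold for all pairs with Nr1d1: Cry2 and Nr1d1 went from 0.52 to -0.05, and Per1 and Nr1d1 from 0.64 to 0.25.

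Clock went against both. With Nr1d1 it had r = -0.70 (permutation p = 0.0143, adjusted p = 0.108) and rho = -0.74 (permutation p = 0.0125), which was -0.89 within groups (permutation p = 0.0255, adjusted p = 0.143), -0.53 without WT replicates 4 and 11, -0.78 without WT replicates 3 and 6, -0.54 within prefix 14309 and 0.02 after removal of the trend. With Arntl it had r = -0.68 (permutation p = 0.0145, adjusted p = 0.108) and rho = -0.58 (permutation p = 0.0660). That pair was -0.67 without WT replicates 4 and 6, -0.87 within groups, -0.61 within prefix 14309 and -0.78 after removal of the trend, but -0.41 without WT replicates 4 and 11. The r of these partners of the positive complex was thus negative in each of these settings.

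**Figure D4:**
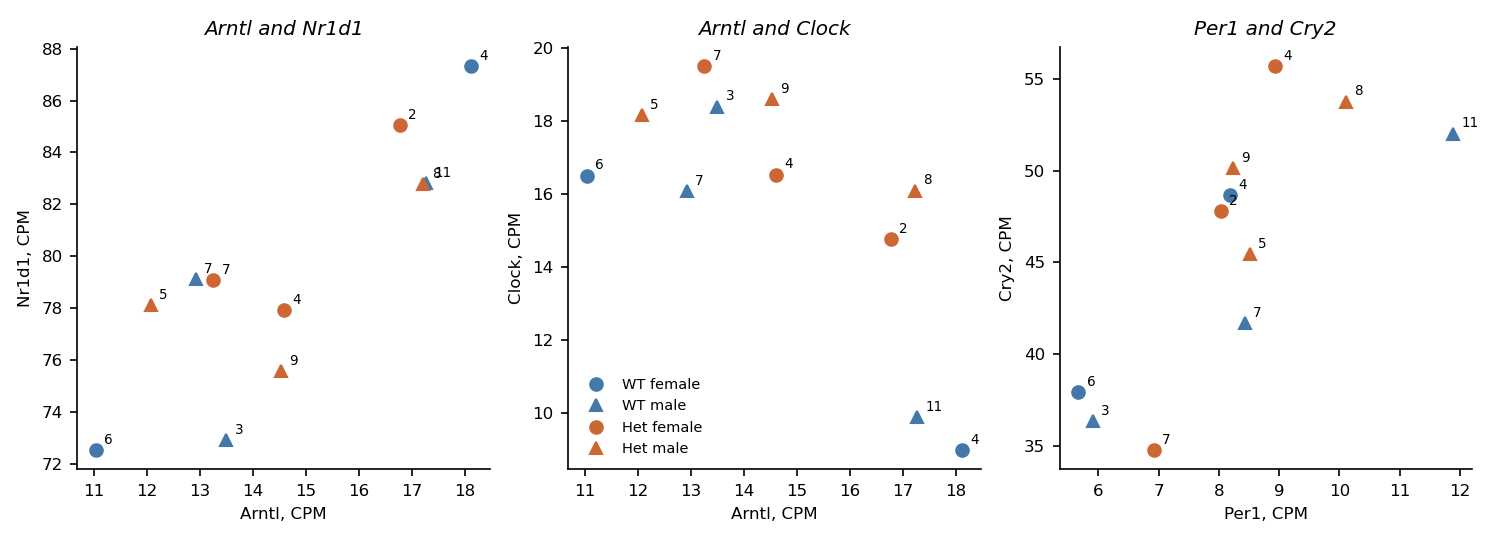
Levels in CPM of Arntl against Nr1d1 (left), Arntl against Clock (centre) and Per1 against Cry2 (right), 1 point per library with its replicate number; axes do not start at 0. Nr1d1 is highest where Arntl is highest, WT replicates 4 and 11 combine high Arntl with low Clock, and Cry2 follows Per1 in both genotypes.

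No strongly negative r was found between Arntl and its repressors or the Per genes. That with Nr1d1 was positive, as above, and that with Per1 was 0.65 (permutation p = 0.0303, adjusted p = 0.171) with a rho of 0.45 (permutation p = 0.164). Arntl with Per2 had r = -0.15 and rho = -0.22 (permutation p = 0.667 and 0.522), with Per3 r = -0.13 and rho = -0.08 (permutation p = 0.722 and 0.818), and with Nr1d2 r = -0.10 and rho = -0.31 (permutation p = 0.762 and 0.356). Adjusted over the 45 pairs, these 6 p-values were 0.783 or more. Nr1d1 and Nr1d2, the paralogous receptors, had r = -0.03 (permutation p = 0.920) and rho = -0.22 (permutation p = 0.519). Per1 and Per2 had r = -0.30 (permutation p = 0.376) and rho = -0.25 (permutation p = 0.468). That pair was -0.62 without WT replicates 11 and 6, -0.65 within groups (permutation p = 0.0231, adjusted p = 0.143) and -0.13 within prefix 14309. With 11 libraries these values do not show that the genes were unrelated.

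As a count, 5 of 45 pairs (11.1%) had an r of 0.7 or beyond in either direction, where 4.44% of all 86902336 gene pairs did. After removal of the length and GC trend it was 1 of 45 (2.22%), that of Arntl and Clock, where 3.53% of all pairs did. With the mean of each genotype and sex group taken off, it was 14 of 45 (31.1%), 7 in each direction, where 10.5% of all pairs did. Those 14 included Per1 with Clock (-0.91), Npas2 with Nr1d2 (-0.85) and Cry2 with Clock (-0.79), which as measured had -0.48, -0.56 and -0.43. In that setting 0 of 45 passed adjustment, with permutation adjusted p of 0.143 or more. Libraries were exchanged there only inside groups of 2 or 3, which gives few arrangements. A single pair could not have passed, so that count does not show that the pairs were unrelated. The correction by the authors had already removed 1 direction of variation between libraries, so each of these values describes what it left.

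**Figure D5:**
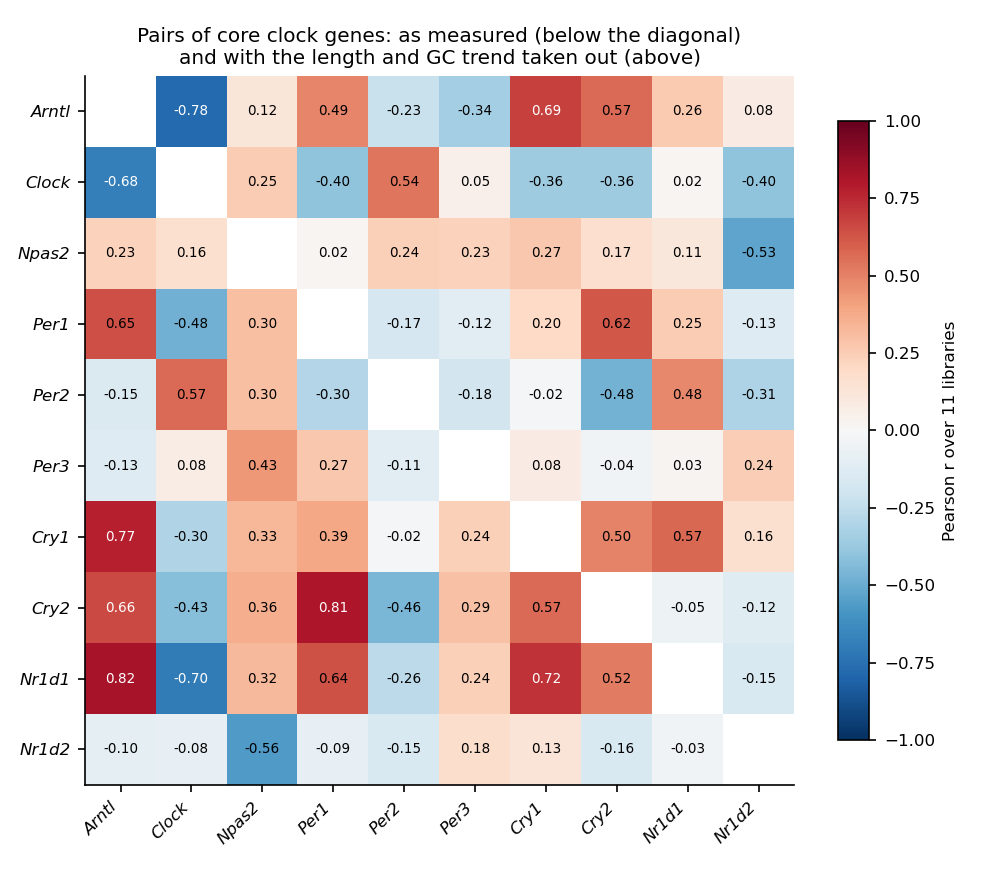
Pearson r over 11 libraries for each pair of members, as measured below the diagonal and after removal of each library's length and GC trend above it; red is positive and blue negative. The red block joining Arntl, Nr1d1, Cry1, Cry2 and Per1 is paler above the diagonal, where Arntl with Nr1d1 falls from 0.82 to 0.26, and Arntl with Clock is dark blue on both sides.

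Outside the loop, 10 genes of its output and side loop were taken as a list, among them Dbp, Tef, Hlf, Nfil3, Bhlhe40, Bhlhe41, Ciart, Rora and Rorb. Of these 10, 2 were higher in Het and none lower, where 3.44% of all genes passed, and the median over the list was 0.10. They were Rorb, a nuclear receptor that competes with NR1D1, by 0.47 (limma adjusted p = 0.00536), and Hlf, a D-box factor, by 0.36 (adjusted p = 0.0321). Among the 100 relations of members with these genes, 1 passed adjustment over the 100. Per2 ran against Dbp, the D-box activator that BMAL1 and CLOCK drive, with r = -0.90 (permutation p = 0.00025, adjusted p = 0.025) and rho = -0.91 (permutation p = 0.00027, adjusted p = 0.027). How many of all genes had such an r with Per2 was not computed. In the limma fit against Per2, 0 of 13183 genes passed, so Dbp did not pass there. Rbm38, Tap1, Selplg, Inpp5j and Safb2 had a more negative statistic in that fit than Dbp. Het replicate 7 had the highest Per2 (6.58 CPM) and the lowest Dbp (4.86 CPM) of all libraries, while WT replicate 4, lowest for Per2 (2.34 CPM), had 7.47 CPM of Dbp. The r was -0.80 without Het replicates 7 and 9, -0.96 within groups and within prefix 14309, and -0.76 after removal of the length and GC trend. Without single libraries it ran from -0.94 to -0.86, but the adjusted p was then 0.05 or more in 8 of 11 cases and reached 0.188 without Het replicate 7. It was 0.0715 without the 2 libraries whose Myt1l went against their labels and 0.226 after removal of the trend, so no relation passed in these settings. Within groups it was 0.529, and no relation passed there either. Exchanging libraries only inside groups of 2 or 3 gives few arrangements. A single relation could therefore not have passed adjustment over the 100, whatever its r, and that p-value decides nothing.

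A further list of 14 genes held mostly those whose proteins modify clock proteins, such as casein kinases and F-box proteins. Of these 14, 1 was higher in Het, Gsk3b, a kinase of several clock proteins, by 0.40 (limma adjusted p = 0.00641), and 13 did not pass. Over all genes tested 3.44% passed, in either direction, and that share stands beside each list below. None of 11 markers of the suprachiasmatic nucleus passed by limma. At an unadjusted p under 0.05 there were 5 of 11, where 22.3% of all genes reached it, and those 5 ran from -0.47 to 0.45. Of the 11 markers, 7 had a positive difference, and their median was 0.06. Their sum was 94.7 to 109 CPM in WT and 98.5 to 110.3 CPM in Het, and the clock values above are from the whole tissue piece in which this nucleus is a small part. Of 14 immediate early genes 6 were higher in Het and 8 did not pass, with 11 of 14 differences positive. Those with the lowest p were Nr4a1 (0.71), Arc (0.98), Egr2 (1.26) and Fosl2 (0.65 on the log2 scale). Per1 and Per2, which respond to the same stimuli, did not pass. Of 13 glucocorticoid-responsive genes 2 were lower, Arrdc2 and Map3k6, with a median of -0.35, and Per1, a known glucocorticoid target, had a difference of 0.13. Among the tissue markers, the lowest p belonged to Drd1, Scn4b, Syndig1l and Rasd2, all higher in Het, on the striatal list and to Avp, Hcrt, Oxt and Gal, all lower, on the hypothalamic list. Other lists held 1 gene each that passed: Tcf7l2 of 8 thalamic and Slc1a2 of 8 astrocyte markers were higher, and Slc2a1 of 7 endothelial markers and Hspb1 of 7 temperature-responsive genes were lower. Among 8 markers each of oligodendrocytes, microglia and neurons, 0 passed by limma, with 0, 1 and 2 at an unadjusted p under 0.05, beside 22.3% of all genes.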

How the data were processed

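Per the labels' protocols, a Zymo kit was used for extraction and a SMARTer Ultra Low kit for the libraries. The submitters' processing notes name Trimmomatic, Bowtie2, STAR and HTSeq and build mm10; the sources used here give no versions, strand setting or gene filter. The deposited values are log2 CPM plus a constant, corrected by what the table's own name calls RUVr (removal of unwanted variation by residuals). All columns share a lowest log2 value of -3.57 and an upper quartile of 5.47. CPM were recovered by back-transforming and subtracting the floor, and 100% of values were whole multiples of 1 step within 0.02. Over 9703 genes with at least 100 corrected counts everywhere, 1 direction across libraries had a singular value of 0.115, beside 15.9 to 34.4 for the others, and a correlation of -0.00082 with genotype and 0.0047 with sex. Spread was thus removed around the groups, and p-values may be too small.

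Tests used limma 3.58.1 in R 4.3.3 with a trend on log2(CPM + 0.5) over the 13184 genes whose mean CPM was 1 or more, two-sided, adjusted by Benjamini-Hochberg at 0.05. Fold changes of low genes are understated by the added 0.5. Pairs were tested by two-sided permutation of libraries. With group means taken off, libraries were exchanged only inside each genotype and sex group, in every possible arrangement. Prefixes of the sample descriptions, unexplained in the labels, split the libraries into 14308 (2 WT, 2 Het), 14309 (2 WT, 4 Het) and 14111 (WT replicate 4 only). Lengths and GC came from the GENCODE annotation of mm10, and promoters from RefSeq, with 9 of 10 members matched. The methods were tested on simulated data. The genes, lists and tests were chosen with earlier results of these data known. All 10 members are named, as are list members that passed, at most 4 per list, and the 5 highest and 5 lowest genes for each reference, without predicted-gene names; 2 genes that these rules or lists take are not reported here. The tests of output genes and of haemoglobin, and values without WT replicates 3 and 6, were added after seeing the data. No molecular identifiers are mentioned, so reads need not be separate molecules. Alternatives covered scaling, pseudocount, filter, covariates, prefixes, sexes and each library left out.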

Additional observations from a re-analysis of the deposited data

Results flagged for a closer look

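In 20 sets of values (10 genes in each genotype), 2 held a library far from the others of its group, where about 1 in 20 would by chance. Nr1d2 was 26.0 CPM in WT replicate 7, while the other 4 WT libraries had 32.9 to 35.0 CPM, and the gap was 0.76 of the group's range. Per3 was 19.8 CPM in Het replicate 5, while the other 5 Het libraries had 13.3 to 14.7 CPM, and the gap was 0.783 of the range. Without Het replicate 5 the Per3 difference was 0.15 in place of 0.25, and without WT replicate 7 the Nr1d2 difference was -0.08 in place of -0.01.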

How the results depend on the processing

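In all alternatives run for Het against WT, 0 of 10 members passed the limma test. Per3, Cry1 and Npas2 kept a positive difference in every alternative. With a striatal covariate, the difference turned for Per1 (-0.22), Cry2 (-0.24), Arntl (-0.29), Nr1d1 (-0.034) and Nr1d2 (0.23). With a replicate block, which pairs only the numbers 4 and 7 and leaves out sex, it turned for Per1 (-0.074), Cry2 (-0.033), Arntl (-0.13), Nr1d1 (-0.082) and Nr1d2 (0.20); the pairs share a number only. Within prefix 14308 it turned for Per2 (-0.22), Clock (-0.0082) and Nr1d2 (0.26). It also turned for Nr1d1 with median centring (-0.011), for Arntl with quantile normalization (-0.0045) and after removal of the length and GC trend (-0.0013), and for Nr1d2 without the 2 libraries whose Myt1l went against their labels (0.072) and in males (0.051). Leaving out single libraries gave -0.093 to 0.14 for Arntl, -0.031 to 0.058 for Nr1d1 and -0.076 to 0.054 for Nr1d2.

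Members passing against Per2 numbered 1 (Cry2) without those 2 libraries; against Nr1d1 there were 0 to 1 with single libraries left out (Clock, without Het replicate 4). Pairs passing numbered 3 with median centring and 0 to 4 with single libraries left out (4 without Het replicate 5). The r of Clock and Nr1d1 was 0.017 and that of Arntl and Nr1d2 0.080 after removal of the trend; the latter was 0.090 without WT replicates 3 and 6, and that of Per2 and Arntl was 0.17 without WT replicates 4 and 11. Over single libraries left out these ran from -0.37 to 0.076 for Per2 and Arntl, -0.32 to 0.23 for Per3 and Arntl, and -0.31 to 0.051 for Arntl and Nr1d2. For Per2 and Dbp, r was -0.94 to -0.86 over single libraries left out, with 0 to 1 relations passing. It was -0.96 with group means taken off, -0.88 without the 2 libraries and -0.76 after removal of the trend, and 0 relations passed in each. With group means taken off, the few arrangements of libraries kept any single relation from passing. Over all genes, the 453 that passed for Het against WT became 0 in females alone and 820 without WT replicate 3, and the 0 that passed against Per2 became 329 without the 2 libraries. The cause of these shifts was not tested. The raw depth is unknown, so no counting limit is given.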
